A study of Rattus norvegicus with 16 samples.

Results

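Kidney RNA was compared between 4 male rats that had breathed 85% oxygen as newborns (hyperoxia) and 4 male rats kept in room air (RA), all aged 1 year. These 8 kidney libraries, chosen by their labelled tissue, are part of a series of 16 libraries, of which the other 8 are from the aorta. All animals were wild-type Sprague-Dawley rats. Hyperoxia ran from postnatal day 1 to 14, and the animals then lived in RA until 1 year of age, so the hyperoxia kidneys are those of animals that lived to that age. RNA was extracted from tissue homogenates, selected for polyA tails and sequenced, and each library is 1 animal. In homogenates, fewer cells of a type and less RNA per cell cannot be told apart.

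The rat kidney goes on forming nephrons, its filtering and reabsorbing units, for some time after birth, so high oxygen in the newborn period falls on a kidney that is still developing. Nephrons are not added later in life. The mature kidney is a mixture of glomeruli, which filter the blood, and of tubule segments and collecting ducts, which recover salt, water and nutrients, together with vessels and connective tissue. The comparison asks which genes still differ in the adult kidney, long after the exposure ended.

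The libraries held 25527226 to 25868352 estimated counts in RA and 25031895 to 26521837 in hyperoxia, with no difference in depth between the groups past the threshold (exact permutation test, two-sided p = 0.514). The 10 most abundant genes took 24.9% to 34% of the counts in RA and 25.4% to 34.5% in hyperoxia, and 17792 to 17880 and 17580 to 18149 genes had at least 1 count. The deposited rows carry Ensembl identifiers without names, and 0 of 23918 could be paired with a name through the reference table used here. Genes are therefore given by identifier, their functions are not described, and the labelled tissue was not checked against marker genes. The authors left out 1 hyperoxia kidney that stood apart in a principal component analysis. Which kidney this was is not given in the sources used here, and all 8 kidneys are used unless stated. Hyperoxia replicate 2, in the numbering used below, was assumed to be the probable one. This was not checked, and fits without it are alternatives.

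Across the kidney transcriptome, differences between the groups were small. The median gene differed by 0.11 on the log2 scale in either direction. With edgeR's quasi-likelihood test, 0 of 15069 genes tested (0% called) passed the thresholds (a Benjamini-Hochberg false discovery rate, FDR, below 0.1 together with a log2 fold change beyond 0.32 in either direction), and the smallest FDR was 0.95. Before adjustment, 747 genes (4.96% of those tested) had p-values under 0.05, with 424 genes (2.81%) higher and 323 (2.14%) lower in hyperoxia. Without any difference between the groups, a threshold of 0.05 would pass about this share of genes. With DESeq2, the tool named by the authors, 23 genes passed the same thresholds (0.153% of those tested), 13 induced (0.0863%) and 10 suppressed (0.0664%). With voom and sample quality weights, 0 genes passed and 2144 had p-values under 0.05 before adjustment, 1002 higher and 1142 lower in hyperoxia. The edgeR balance of higher and lower genes also depended on the scaling, with 239 higher and 235 lower on library totals alone.

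The share of genes with an unadjusted edgeR p-value under 0.05 was similar from low to high expression. At each level it was near the share that this threshold passes without any difference between the groups. It was 4.74% of 1203 genes with a mean under 1 CPM (counts scaled to a library of 1000000), 4.95% of 4542 genes from 1 to 10 CPM, 5.22% of 7854 genes from 10 to 100 CPM, and 3.74% of 1470 genes at 100 CPM or more. No gene was switched on or off between the groups in the sense of having at least 10 counts in every library of one group and 0 in every library of the other (0 genes in either direction).

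An edgeR difference of more than 2-fold was fitted for 264 genes, 144 higher and 120 lower in hyperoxia. Among them, 99 had p-values under 0.05 before adjustment, and the groups did not overlap in 40. Over all genes tested, these numbers were 747 (4.96%) and 463 (3.07%). Both counts among the 264 follow in part from choosing genes by the size of their difference. In part of the 264 genes, 1 hyperoxia kidney stood apart from the rest. In 67 of the 144 genes that were higher and 21 of the 120 that were lower, 1 hyperoxia kidney lay more than 2-fold outside the range of the other 7 kidneys. Choosing genes by the size of their difference favours genes with 1 extreme kidney, so these counts also follow in part from that choice. Without that choice, hyperoxia replicates 1 to 4 stood apart in this way in 73, 34, 124 and 180 genes. RA replicates 1 to 4 did so in 19, 29, 41 and 37 genes. Among the 264, genes in which a single RA kidney stood apart were not counted.

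The 23 genes called by DESeq2 covered a broad range of expression and of effect. The 13 induced genes had log2 fold changes of 0.39 to 4.87 (median 1.03) and RA means of 0.461 to 99.4 CPM, and 7 of them were more than 2-fold higher. The 10 suppressed genes had log2 fold changes of −2.55 to −0.39 (median −0.78) and RA means of 1.14 to 187 CPM, and 3 of them changed more than 2-fold. In all 23 genes the RA and hyperoxia values did not overlap, which follows in part from how the 23 were chosen. Of all genes tested, 463 (3.07%) had no overlap, 251 with higher values in hyperoxia (1.67%) and 212 with lower values (1.41%). The edgeR p-values of the 23 genes before adjustment lay between 6.64e-05 and 0.00334. Standard deviations of log2 CPM were larger in hyperoxia than in RA for 12 of the 23, where this was so for 75.1% of all genes tested. The choice of the 23 also shapes this count, since a small spread within groups favours a call.

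**Figure D1:**
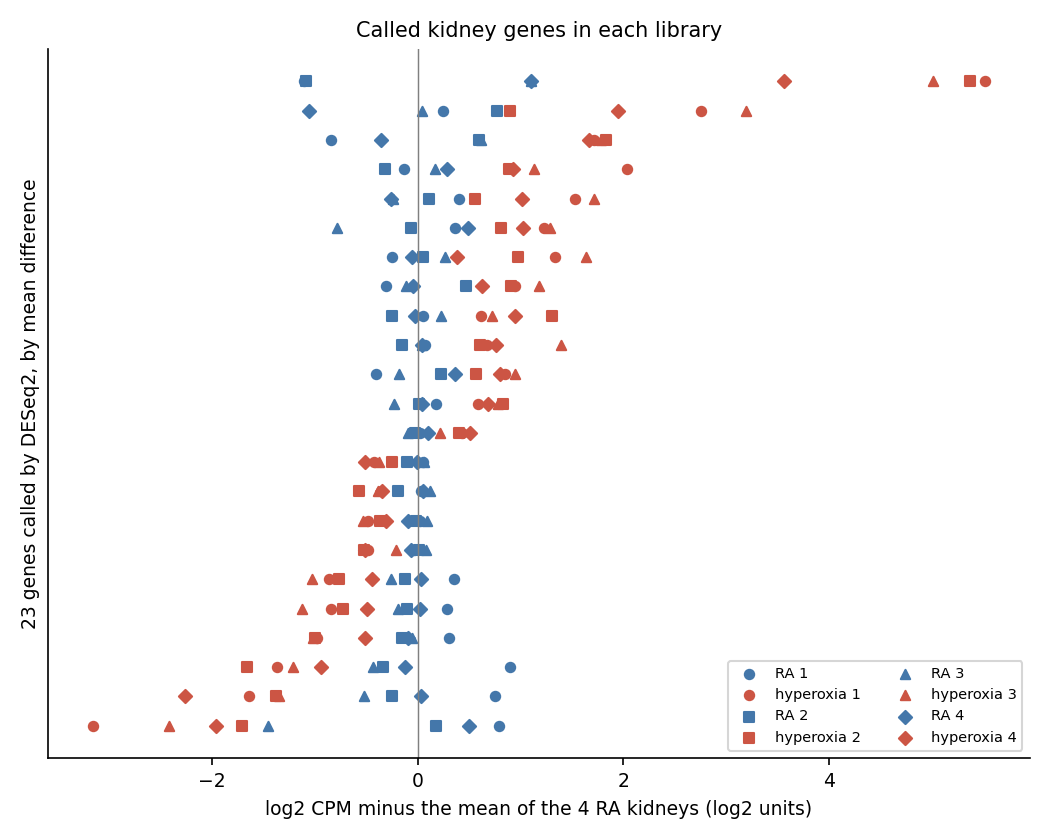
Each row is 1 of the 23 genes called by DESeq2 and each point 1 kidney, placed by its log2 CPM minus the mean of the 4 RA kidneys (x axis, log2 units). The genes are ordered by the mean of the hyperoxia kidneys (red), which lie to the right of all RA kidneys (blue) in 13 genes and to their left in 10.

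The hyperoxia kidneys differed in how far they lay from RA in these genes. Over the 13 induced genes, the median log2 difference from the RA mean was 1.22, 0.88, 1.29 and 0.93 in hyperoxia replicates 1 to 4. Over the 10 suppressed genes it was −0.85, −0.74, −1.02 and −0.51. Hyperoxia replicate 4 was the hyperoxia kidney nearest to RA in 10 of the 23 genes, 6 of them suppressed, and replicate 2 in 8, 6 of them induced. Replicates 1 and 3 were nearest in 2 and 3 genes. The RA kidneys were also uneven, with RA replicates 1 to 4 nearest to hyperoxia in 3, 5, 8 and 7 genes. Genes that vary together are not separate observations in these counts.

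Described in full are the pair of induced and the pair of suppressed genes (2 each) that ranked first by DESeq2 p-value. ENSRNOG00000032720, ranked first among the induced genes by both tests, was close to absent in RA, at 0.114, 0.116, 0.806 and 0.806 CPM, which are 3, 3, 20 and 22 counts. The hyperoxia kidneys stood at 18.8, 16.9, 13.2 and 4.78 CPM, or 451, 508, 317 and 118 counts. Every hyperoxia kidney lay above every RA kidney, and hyperoxia replicate 4 was the lowest of its group. The RA mean was 0.461 ± 0.399 CPM and the hyperoxia mean 13.4 ± 6.22 CPM (SD over 4 animals in each), a ratio of 29.1. The edgeR estimate on the log2 scale was 4.85 ± 0.68 (standard error, FDR 0.95), and the FDR from DESeq2 was 2.74e-10. All 8 estimated counts of this gene were whole numbers, as they are where no reads are divided among genes.

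ENSRNOG00000014448 was at 2.58, 7.13, 7.25 and 3.66 CPM in the RA kidneys and at 15.6, 17.0, 16.4 and 15.2 CPM in the hyperoxia kidneys. The hyperoxia kidneys were close together, and the RA kidneys fell into a lower and a higher pair, with no overlap between the groups. The RA mean was 5.16 ± 2.39 CPM and the hyperoxia mean 16 ± 0.83 CPM (SD over 4 animals in each). The edgeR estimate on the log2 scale was 1.64 ± 0.31 (standard error, FDR 0.95 from edgeR, FDR 0.000956 from DESeq2).

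ENSRNOG00000021027, ranked first by both tests among the called suppressed genes, was at 217, 157, 169 and 164 CPM in RA, and at 88.9, 87.8, 86.7 and 123 CPM after hyperoxia. RA replicate 1 was the highest of its group and hyperoxia replicate 4 the highest of its own, and the groups did not overlap. The RA mean was 177 ± 27.2 CPM and the hyperoxia mean 96.5 ± 17.4 CPM (SD over 4 animals in each). The edgeR estimate on the log2 scale was −0.87 ± 0.15 (standard error, FDR 0.95 from edgeR, FDR 0.000546 from DESeq2). In 6 of the 8 libraries its estimated count was not whole, so part of its reads was divided with another gene's transcripts.

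ENSRNOG00000012273 was at 190, 184, 199 and 174 CPM in RA, and at 133, 145, 129 and 150 CPM after hyperoxia. Both groups were narrow and did not overlap. The RA mean was 187 ± 10.4 CPM and the hyperoxia mean 139 ± 10 CPM (SD over 4 animals in each). The edgeR estimate on the log2 scale was −0.42 ± 0.08 (standard error, FDR 0.95 from edgeR, FDR 0.000579 from DESeq2). Its counts were not whole in 4 libraries. Of the 23 genes, 12 had whole counts in every library, 10 of the 13 induced and 2 of the 10 suppressed, and 0 had counts identical to those of another identifier.

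**Figure D2:**
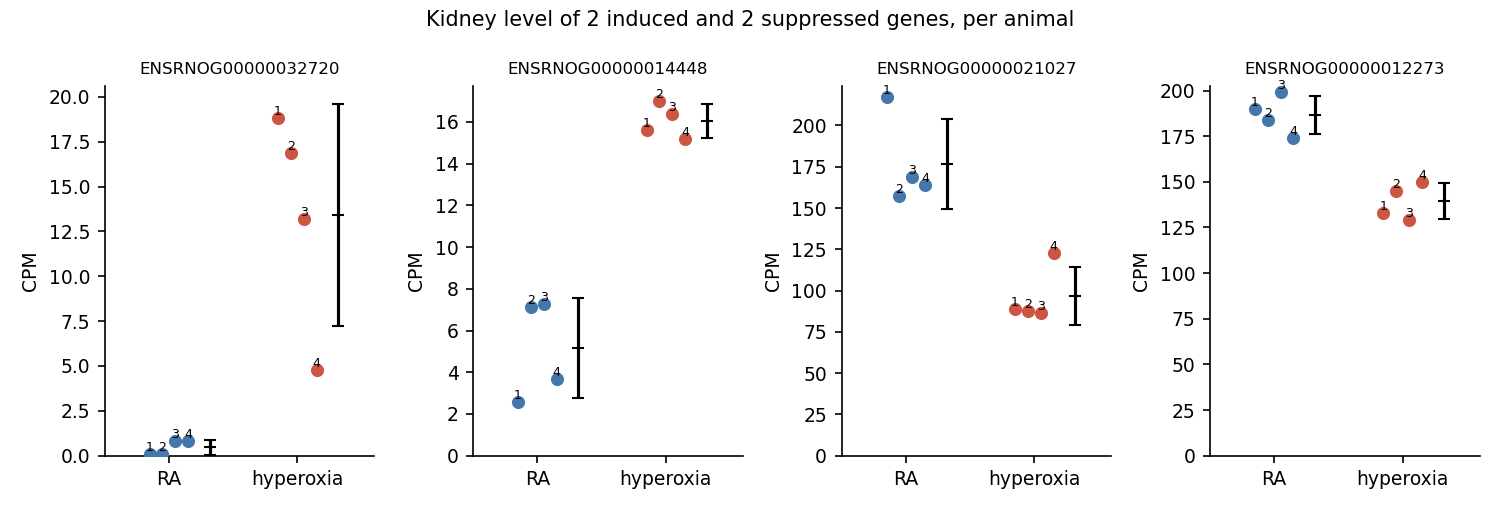
CPM (y axis, starting at 0) of the 2 induced and the 2 suppressed genes in each kidney, with the replicate number beside each point and the mean ± SD of 4 animals to its right. In each gene the 4 hyperoxia kidneys lie wholly above or wholly below the 4 RA kidneys, and ENSRNOG00000032720 ranges from 4.78 to 18.8 CPM in hyperoxia.

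The hyperoxia kidneys differed more among themselves than the RA kidneys did. Over the 15069 genes, the standard deviation of log2 CPM was larger in hyperoxia than in RA for 75.1% of genes, with medians of 0.24 and 0.148. The direction held when each kidney was left out in turn and compared with sets of 3 kidneys of the other group, with shares of 67.4% to 76.4%. The median difference in standard deviation was 0.078, and it was 0.0518 without hyperoxia replicate 3, the kidney whose removal lowered it most. A difference in spread between groups of 4 animals was not tested.

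Genes in which a single kidney stood apart were unevenly spread over the libraries. In hyperoxia replicate 4, 135 genes were more than 2-fold above and 45 more than 2-fold below all 7 other kidneys. In hyperoxia replicate 3, 16 were above and 108 below, and in hyperoxia replicate 1, 5 were above and 68 below. Hyperoxia replicate 2, with 11 above and 23 below, was within the range of the RA kidneys, in which 19 to 41 genes stood apart.

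**Figure D3:**
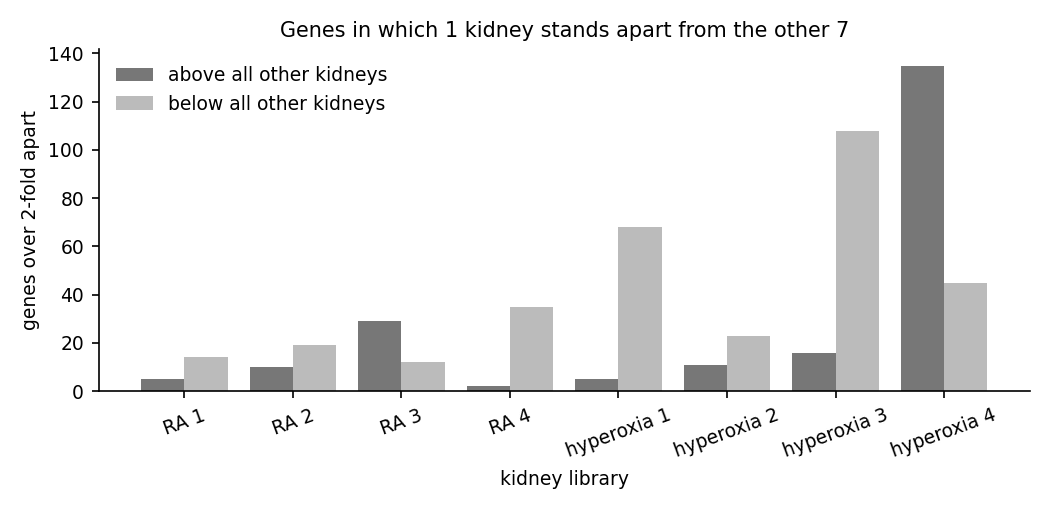
The number of genes (y axis) in which 1 kidney library lay more than 2-fold above (dark bars) or below (light bars) all 7 other kidneys. The highest bars are those of hyperoxia replicate 4 above (135 genes) and hyperoxia replicate 3 below (108 genes).

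The genes called depended on which animal was left out. With DESeq2, leaving out hyperoxia replicate 2 gave 390 genes of 15187 tested (2.57%), 147 induced and 243 suppressed, and leaving out hyperoxia replicate 4 gave 132, with 93 induced and 39 suppressed. The larger share of calls was suppressed in the first case (62.3%), while 29.5% were suppressed in the second. Leaving out hyperoxia replicates 1 and 3 gave 13 and 23 genes. Leaving out RA replicates 1 to 4 gave 30, 17, 29 and 79. With edgeR, 0 genes passed in each of these 8 fits, and between 448 and 1474 genes had p-values under 0.05 before adjustment.

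All 23 genes called over the 8 kidneys were among the 390 genes called without hyperoxia replicate 2, of which they were 5.9%. Without hyperoxia replicate 4, 22 of the 23 were called again (95.7%), and without hyperoxia replicate 1, 10 were (43.5%). In all, 9 of the 23 genes, 5 induced and 4 suppressed, were called by DESeq2 whichever kidney was left out. Each of the 4 genes given by identifier passed an FDR under 0.1 in every DESeq2 fit. These fits share most of the libraries by which the genes were chosen, so being called again is not separate support.

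**Figure D4:**
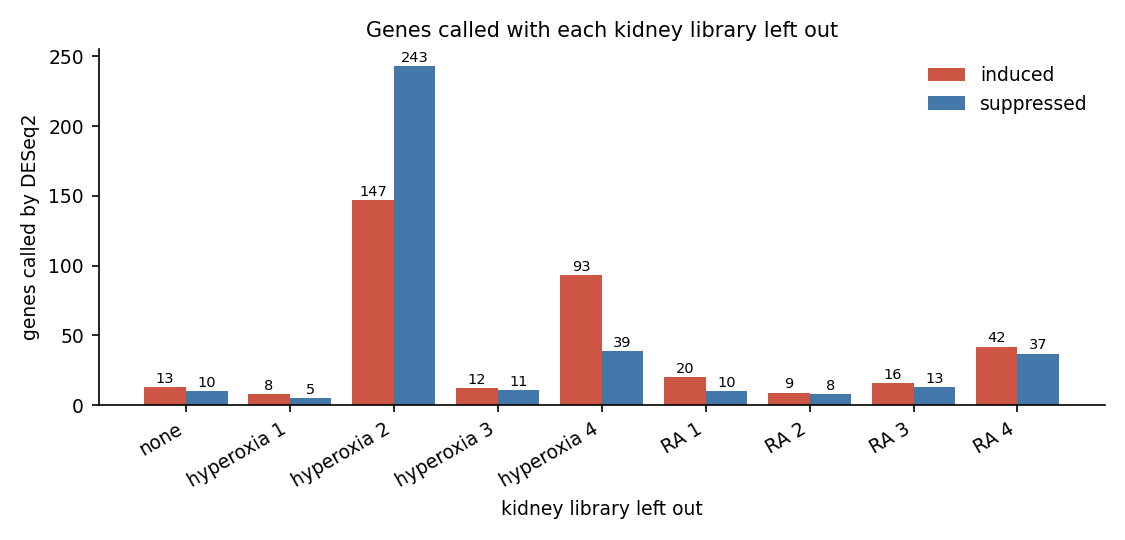
The number of genes called by DESeq2 (y axis), induced in red and suppressed in blue, over all 8 kidneys (none) and with each kidney left out in turn (x axis). Counts range from 8 induced and 5 suppressed genes without hyperoxia replicate 1 to 147 and 243 without hyperoxia replicate 2.

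A kidney that was left out takes no part in the calls made without it, so its own values can be set beside them, although the RA kidneys are common to both. Sharing them raises the number of genes on the same side even without an effect of hyperoxia, by an amount that was not estimated, so the shares are given as a description. Of the 390 genes called without hyperoxia replicate 2, that kidney lay on the same side of the RA mean as the other hyperoxia kidneys in 183 (46.9%) and inside the range of the 4 RA kidneys in 211 (54.1%). For the 243 suppressed genes, the median log2 difference from RA was −0.84 in the other hyperoxia kidneys and 0.12 in hyperoxia replicate 2, which lay on the same side in 87 genes. For the 147 induced genes, the medians were 0.67 and 0.16, with 96 genes on the same side.

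Of the 132 genes called without hyperoxia replicate 4, it lay on the same side as the other hyperoxia kidneys in 74 (56.1%), 46 of the 93 induced genes (49.5%) and 28 of the 39 suppressed genes (71.8%). Its median log2 difference from RA was −0.01 over the induced genes, where the others had 0.89, and −0.17 over the suppressed genes, where the others had −0.74. The lower share was thus in the induced genes for replicate 4 and in the suppressed genes for replicate 2. Hyperoxia replicate 1 lay on the same side in 11 of the 12 genes called without it that also passed the expression filter over all 8 kidneys. Hyperoxia replicate 3 did so in 19 of 23. The cause of these differences between animals was not tested.

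The aorta libraries took no part in choosing the 23 kidney genes, although library numbers shared by the tissues in 3 hyperoxia animals mean that both organs may come from the same rats. Of the 23, 19 were expressed in the aorta, and 13 of these differed in the same direction there. Of the 8 suppressed genes measured in the aorta, 7 were lower after hyperoxia there and 5 had an edgeR p-value under 0.05 before adjustment, all of them lower, where 5.91% of all aorta genes were lower at that p-value (9.24% in either direction). Of the 11 induced genes, 6 were higher in the aorta and 1 had a p-value under 0.05, where 3.33% of all aorta genes were higher at that p-value. After adjustment, edgeR called 1 of the 19 in the aorta (0.0199% of all aorta genes) and DESeq2 5 (1.13%). The median aorta log2 fold change was −0.65 over the suppressed genes and 0.04 over the induced genes. Genes that vary together across animals do not count as separate recurrences, and how far these did was not tested. In the aorta, every hyperoxia library was deeper than every RA library, so depth and exposure cannot be told apart there.

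The exception among the induced genes was ENSRNOG00000014448. In the aorta it was at 5.12, 2.67, 3.04 and 3.05 CPM in RA, and at 40.0, 25.1, 39.4 and 25.1 CPM after hyperoxia, a log2 fold change of 3.22 (FDR 0.00502 from edgeR). ENSRNOG00000021027 was also lower in the aorta, at 126, 284, 327 and 256 CPM in RA against 19.3, 37.4, 22.5 and 58.6 CPM after hyperoxia, with a log2 fold change of −2.85 (FDR 0.131 from edgeR, FDR 6.43e-10 from DESeq2). ENSRNOG00000032720 showed no difference past the threshold in the aorta, where the RA mean was 1.02 ± 0.691 CPM and the hyperoxia mean 0.725 ± 0.436 CPM (SD over 4 animals in each, FDR 0.813 from edgeR).

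Whether the effect of hyperoxia differed between kidney and aorta was tested by the interaction of tissue and exposure over all 16 libraries. The fit treated the 16 libraries as separate animals and took no account of rats that may have given both organs. It also includes the aorta comparison, in which depth and exposure cannot be told apart. With edgeR, 0 of 16025 genes (0%) passed an FDR under 0.1, while 1277 (7.97%) had p-values under 0.05 before adjustment. DESeq2 called 87 (0.543%), 5 of them among the 23 kidney genes. The 23 were chosen for a difference in these same kidney libraries, which also enter the interaction. Their count and the estimates below are therefore shaped by that choice. For ENSRNOG00000032720, the log2 fold change was higher in the kidney than in the aorta by 5.34 (standard error 0.99, FDR 0.313 from edgeR, FDR 5.4e-05 from DESeq2). The induction of ENSRNOG00000014448 differed by −1.62 between kidney and aorta (standard error 0.42, FDR 0.489 from edgeR, FDR 0.0752 from DESeq2). For ENSRNOG00000012273, the tissues differed by −0.01 (standard error 0.62, FDR 0.994 from DESeq2), an estimate too wide to show that they acted alike.

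**Figure D5:**
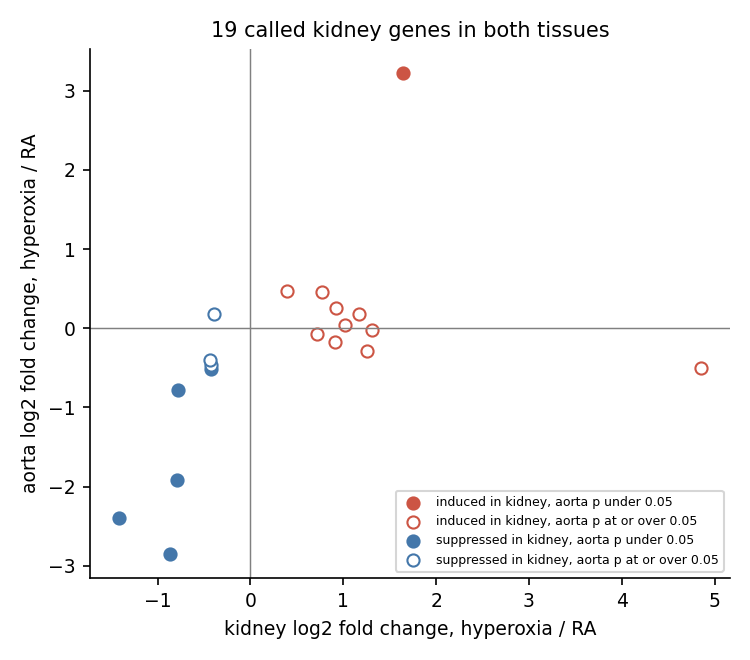
Log2 fold change of hyperoxia over RA in the kidney (x axis) and in the aorta (y axis) for the 19 called kidney genes that were also measured in the aorta. Filled points have an unadjusted aorta p-value under 0.05 (5 suppressed genes in blue, 1 induced gene in red), and open points do not.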

How the data were processed

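Transcript abundances were obtained by the authors with kallisto against rn6.0 transcripts and summed by gene with tximport, and estimated counts were deposited for 8 kidney and 8 aorta libraries. Versions, annotation release and tximport setting are not given in the sources used here. Between 25.7% and 27.1% of the values of a kidney library were fractional, and values were rounded before testing. The main test was that of edgeR 4.0.16 under R 4.3.3 (edgeR's filter on expression by group, TMM factors, estimated dispersions, quasi-likelihood test, Benjamini-Hochberg adjustment over all genes tested). DESeq2 1.42.0 and voom in limma 3.58.1 were alternatives. Standard errors with edgeR were derived from the F statistic. CPM used TMM factors, and log2 CPM a prior count of 2. Depth sets the counting error of each value, and the number of animals, 4 per group, also limits the precision.

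The 34 marker and pathway lists, with 506 symbols, gave no values, since 0 of 23918 identifiers were paired with a symbol, so no list was tested and no sequence is shown. Genes to be named were at most 2 identifiers per direction among those called by DESeq2, with the smallest p-value taken after the values were seen. The comparison, lists and tests were chosen with earlier results of these data known.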

Additional observations from a re-analysis of the deposited data

Results flagged for a closer look

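Values of the 4 named genes and of 4 measures of library quality were examined within RA and within hyperoxia, 16 sets of 4 kidneys in all. In 1 set a library lay far from the other 3, where chance gives about 0.8. It was ENSRNOG00000021027 in hyperoxia, in which replicate 4 stood at 123 CPM and the others between 86.7 and 88.9 CPM.

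For 3 of the 4 genes given by identifier, the log2 fold change of hyperoxia over RA differed between the tissues with DESeq2 and not with edgeR. The genes were chosen from the same kidney values that enter this comparison. In its aorta part, depth and exposure cannot be told apart. The kidney log2 fold change minus that of the aorta was 5.34 for ENSRNOG00000032720 (FDR 5.4e-05 from DESeq2, 0.313 from edgeR). It was −1.62 for ENSRNOG00000014448 (FDR 0.0752 from DESeq2, 0.489 from edgeR), which was higher after hyperoxia in all 4 animals of each tissue. It was 1.94 for ENSRNOG00000021027 (FDR 0.0165 from DESeq2, 0.456 from edgeR), which was lower after hyperoxia in both tissues, by less in the kidney.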

How the results depend on the processing

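Over all 8 kidneys, edgeR called 0 genes (747 had p-values under 0.05 before adjustment), and 0 were also called with voom (2144), robust fitting, RLE, upper quartile or no normalization, no filter, at least 10 counts in every library, an FDR under 0.05 or no limit on the fold change. DESeq2 gave 23 (13 induced, 10 suppressed), and 27 (15 and 12) when genes needed 10 counts summed over the kidneys. Leaving out 1 kidney gave 0 to 390 genes over both tools (0 to 147 induced, 0 to 243 suppressed), the highest with DESeq2 without hyperoxia replicate 2. With DESeq2, leaving out hyperoxia replicates 1 to 4 gave 13 (8 induced, 5 suppressed), 390 (147, 243), 23 (12, 11) and 132 (93, 39), and leaving out RA replicates 1 to 4 gave 30 (20, 10), 17 (9, 8), 29 (16, 13) and 79 (42, 37). For the interaction, DESeq2 gave 87 genes, library totals 0, and leaving out 1 kidney 0 to 1 with edgeR (963 to 1529 genes under 0.05 before adjustment), the 1 without hyperoxia replicate 2. The median difference in standard deviation, whose alternatives were added after seeing the data, stayed between 0.0518 and 0.105 with 1 kidney left out. The 4 named genes kept their direction in all 107 alternative values, and passed the FDR in the 40 of these that came from DESeq2. They were chosen by DESeq2 p-value in these same kidneys, and their groups did not overlap. Leaving out 1 kidney could therefore hardly reverse a direction, and settings that changed only a threshold repeat the main value. These counts are thus no separate support for the 4 genes. The cause of the differences between tools and between kidneys left out was not tested. No paired analysis was possible because kidney libraries of the 2 exposures have no number in common. The fits with a marker-based covariate and the list medians were not run, since the identifiers had no names.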
